A study of Mus musculus with 6 samples.

Results

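The 7 genes described here encode the class II and class IV histone deacetylases of the mouse, named by symbol as Hdac4, Hdac5, Hdac7 and Hdac9 (class IIa), Hdac6 and Hdac10 (class IIb) and Hdac11 (class IV). All 7 were found among the 23420 genes listed in the deposited table of RPKM, a unit that divides the reads of a gene by its length and by the size of the library. The table came from bulk RNA sequencing of whole liver from C57Bl/6 mice. Iron in the diet was kept low for 3 weeks in all 6 mice, after which 3 were given 2 intraperitoneal doses of 20 mg/kg RGFP966, an inhibitor of HDAC3, and 3 were given vehicle. The livers sequenced were those with the best RNA of a larger group. The columns of the table are headed Sample1 to Sample6, and no label ties a heading to a mouse or a treatment. Each value is therefore given by its column, treated and vehicle livers are pooled, and no comparison of RGFP966 with vehicle is made.

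Histone deacetylases remove acetyl groups from lysines of histones and of many other proteins. The class I enzymes, HDAC3 among them, carry out most deacetylation of histones. Class IIa proteins have little catalytic activity of their own and act largely as adaptors that bring the HDAC3 and NCoR complex to transcription factors such as MEF2. Their phosphorylation by salt-inducible kinases and related kinases creates binding sites for 14-3-3 proteins and keeps them in the cytoplasm, and in hepatocytes the loss of this phosphorylation in fasting lets them enter the nucleus and act with FOXO factors on glucose production. HDAC6 is a cytoplasmic deacetylase of tubulin and HSP90 with a pair of catalytic domains, HDAC10 deacetylates polyamines, and HDAC11, the only class IV enzyme, removes long-chain fatty acyl groups from proteins.

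The difference between class IIa and the other 3 genes can be read in the coding sequence of the active site. The windows below are the 30 bases around it in the reading frame of a GENCODE M21 transcript of each gene, 5′ to 3′ on the coding strand, with the codon of the active-site residue in capitals. They are shown because, among the 7 genes, this codon separates the 4 with the lowest medians in these livers from the other 3. No window of a class I gene was examined, and a link between the codon and RNA level was not tested.
Hdac4: gcccttgagggaggcCATgacctgacagcc
Hdac5: gccctggagggaggcCATgacttgaccgcc
Hdac7: gccttagagggtggaCATgacctcacggcc
Hdac9: gctctggaaggaggaCATgatctgacagct
Hdac6, first catalytic domain: tccctggagggtggcTATaacctccgtgcc
Hdac6, second catalytic domain: attctagagggtggaTACaatttggcatct
Hdac10: gtgttggagggtggcTACcacttggagtcc
Hdac11: gtgacctcgggtgggTACcagaagcgcaca

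In all 4 class IIa genes the codon is CAT, for histidine, whereas Hdac6, Hdac10 and Hdac11 carry TAT or TAC, for tyrosine. The tyrosine takes part in catalysis, and its replacement by histidine is the known reason for the weak activity of class IIa proteins. The windows of Hdac4 and Hdac5 share 27 of 30 bases, and those of Hdac4 and Hdac11 share 10. On GRCm38 the Hdac4 window lies in exon 23 of 26 of its transcript, at chr1:91945948-91945977 on the reverse strand. Those of Hdac5 (chr11:102196587-102196616, reverse), Hdac7 (chr15:97796146-97796175, reverse), Hdac9 (chr12:34107266-34107295, reverse) and Hdac11 (chr6:91173115-91173144, forward) also fall inside a single coding exon. The windows of Hdac6 on chromosome X cross the junctions of exons 14 and 15 and of exons 23 and 24, and the window of Hdac10 on chromosome 15 crosses that of exons 10 and 11.

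The RPKM values could be turned back into whole reads, since within a gene they stand in the ratio of whole numbers. The reads so obtained summed to between 27559475 (Sample1) and 36693678 (Sample6) per column. Liver identity was clear in every column: all 8 hepatocyte markers were at 1 RPKM or more in all 6 columns, with a summed level between 50986 and 60986 RPKM. Markers of other liver cells were also present, with summed levels of 106 to 168 RPKM for the 5 listed Kupffer cell and macrophage genes, 64.4 to 92.4 RPKM for 6 endothelial genes, 70.8 to 112 RPKM for 6 stellate cell genes, 2.97 to 6.46 RPKM for 4 bile duct genes and 0.336 to 1.09 RPKM for 4 lymphocyte genes. Of the 3 skeletal muscle markers, 2 were at 0 in every column. Pairwise correlations of log2 values over the 7108 genes at 1 RPKM or more in all columns were between 0.958 and 0.990, with Sample1, Sample2 and Sample3 closest to each other and Sample4, Sample5 and Sample6 closest to each other. The table gives no key that would tie either set to a treatment, so the spread between columns reported for each gene holds any effect of RGFP966 together with differences between mice and libraries.

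Hdac10, Hdac11 and Hdac6 had medians between 2.87 and 3.24 RPKM, Hdac5 and Hdac4 had medians of 1.78 and 0.796 RPKM, and Hdac7 and Hdac9 had medians of 0.143 and 0.0230 RPKM. At 1 RPKM or more in all 6 columns were 3 of the 7 genes, namely Hdac6, Hdac10 and Hdac11, all with the tyrosine codon shown above. With the longest coding transcript in GENCODE as gene length, Hdac11 no longer reached it in all columns and 2 genes were left. None of the 4 class IIa genes reached 1 RPKM in all 6 columns, although Hdac5 did in 5 and Hdac4 in 1. Over all genes, 7108 of 23420 were at or above this level in every column.

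**Figure D1:**
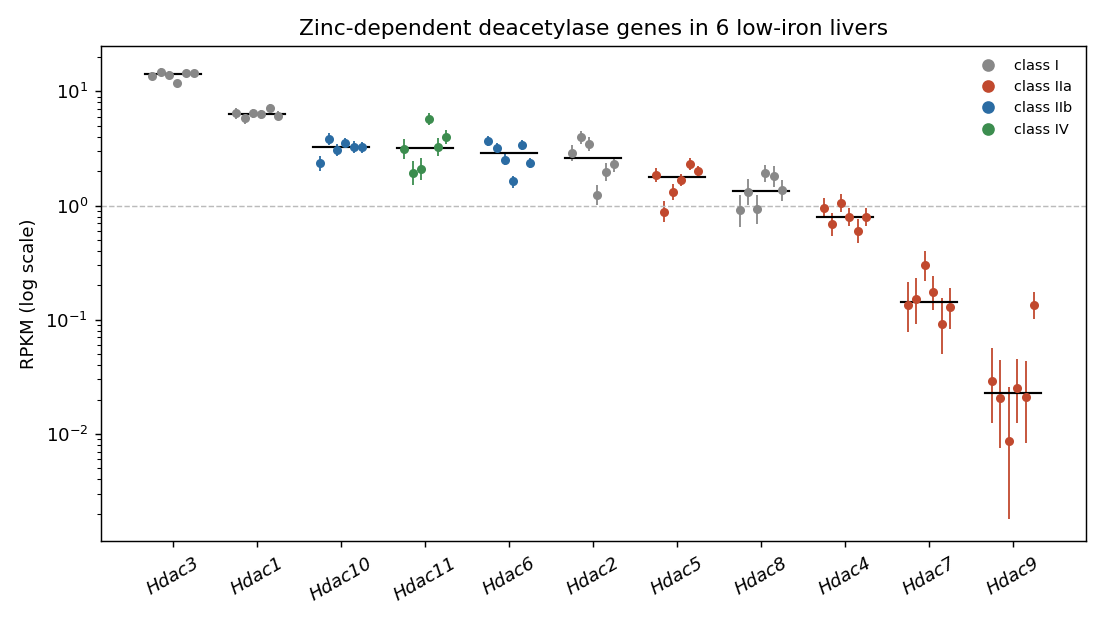
RPKM (log scale) of the 11 zinc-dependent deacetylase genes in each of the 6 columns, plotted left to right from Sample1 to Sample6 within each gene and coloured by class. Points are deposited values, vertical bars are exact 95% Poisson intervals of the reads behind them, horizontal lines are medians and the dashed line marks 1 RPKM. Hdac10, Hdac11 and Hdac6 lie near 3 RPKM, below Hdac3 and Hdac1, and Hdac7 and Hdac9 lie below all the others except where Hdac9 in Sample6 reaches the level of Hdac7.

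Hdac5 was the most abundant class IIa gene. It lies on chromosome 11 of GRCm38 (102194432 to 102230166, reverse strand; ENSMUSG00000008855). Its levels were 1.86, 0.884, 1.32, 1.69, 2.33 and 2.00 RPKM in Sample1 to Sample6, from 90 to 296 reads. The lowest value, in Sample2, stood apart from the others, and the highest, in Sample5, was 2.63-fold above it. The exact 95% Poisson intervals of the reads, which cover counting error only and treat reads as independent although no molecular identifiers were used, were separate for 9 of the 15 pairs of columns.

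Hdac4, the class IIa gene with the longest studied role in muscle and cartilage, lies on chromosome 1 (91928779 to 92195699, reverse strand; ENSMUSG00000026313). It was measured at 0.955, 0.691, 1.06, 0.798, 0.601 and 0.794 RPKM in Sample1 to Sample6, from 73 to 132 reads. The highest and lowest columns, Sample3 and Sample5, differed 1.76-fold, and intervals were separate for only 3 of 15 pairs. Hdac5 exceeded Hdac4 in 6 of 6 columns, by 2.23-fold between medians, although the lowest Hdac5 value (0.884 RPKM) was below the highest Hdac4 value (1.06 RPKM). The deposited values of Hdac4 rest on a gene length of 3945 bases, close to a GENCODE transcript but shorter than the longest coding one of 8100 bases, which would lower its median to 0.388 RPKM. GENCODE also places exons of a non-coding gene on the opposite strand, Gm26720, over 3536 of the 15813 exonic bases of Hdac4. The counting at default parameters did not use strand, so reads from any overlap within the 3945 bases used cannot be told apart. How much of the overlap lies within those bases was not examined. For Hdac11, exons of Gm44002 on the opposite strand lie over 594 of 3849 exonic bases.

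Hdac7, known for its role in endothelial cells and thymocytes, lies on chromosome 15 (97792664 to 97844502, reverse strand; ENSMUSG00000022475). Its values were 0.135, 0.150, 0.300, 0.175, 0.0916 and 0.129 RPKM in Sample1 to Sample6, from 14 to 47 reads. Sample3 was highest, 3.27-fold above the lowest column, Sample5. Its interval in Sample3, 0.220 to 0.398 RPKM, was apart from those of Sample5 (0.0501 to 0.154 RPKM), Sample1 (0.0784 to 0.215 RPKM) and Sample6 (0.0838 to 0.191 RPKM), and these were the 3 of 15 pairs of columns with separate intervals. Whether Hdac7 comes from hepatocytes or from other liver cells is not given by whole-liver RNA, where fewer cells of a type and less RNA per cell cannot be told apart. Summed endothelial markers were at 72.1 RPKM in Sample3, with 4 columns higher. The largest part of this sum was Clec4g (33.8 RPKM), and the listed genes did not move together. Clec4g and Stab2 were at their lowest in Sample3, and Kdr and Pecam1 were below their medians. Lyve1 (25.6 RPKM) and Cdh5 (3.72 RPKM) were above theirs. The part of endothelial cells in the Hdac7 value was not tested.

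Hdac9, the lowest of the family, lies on chromosome 12 (34047580 to 34917095, reverse strand; ENSMUSG00000004698) and encodes a class IIa protein best known from muscle, brain and regulatory T cells. In Sample1 to Sample5 it was at 0.0289, 0.0206, 0.00873, 0.0251 and 0.0209 RPKM, which are 8, 6, 3, 11 and 7 reads. In Sample6 it was at 0.135 RPKM, from 57 reads, with an interval of 0.102 to 0.175 RPKM that was apart from the intervals of each of the other 5 columns. Those other 5 columns could not be told apart from each other at this depth. Sample6 was not the highest column for any of the summed marker lists of other cells: it was the lowest for endothelial (64.4 RPKM) and stellate cell genes (70.8 RPKM) and had 3 columns above it for lymphocyte genes (0.776 RPKM), and its 3 skeletal muscle markers were at 0. The largest part of the endothelial sum in Sample6 was Clec4g (43.7 RPKM), and that of the stellate cell sum was Dcn (66.5 RPKM). In the endothelial and stellate cell lists, Kdr (2.62 RPKM) and Des (0.825 RPKM) were above their medians in Sample6. The other genes of these lists were below theirs. All 4 lymphocyte genes were above their medians in Sample6, each with at most 24 reads in any column. They were at 0.107 (Cd3e), 0.226 (Cd3g), 0.368 (Cd79a) and 0.0749 RPKM (Ms4a1). A sum led by a single gene mostly follows that gene. Single genes could be highest in Sample6, as were Kdr and the bile duct gene Epcam (1.06 RPKM). Of the other bile duct genes, Krt19 was above its median and Krt7 and Sox9 were below theirs. The part of other cells in the Hdac9 value was not tested. With Hdac9 the order of the lowest pair changed in this column, where Hdac9 was above Hdac7; in the other 5 columns Hdac7 was higher.

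**Figure D2:**
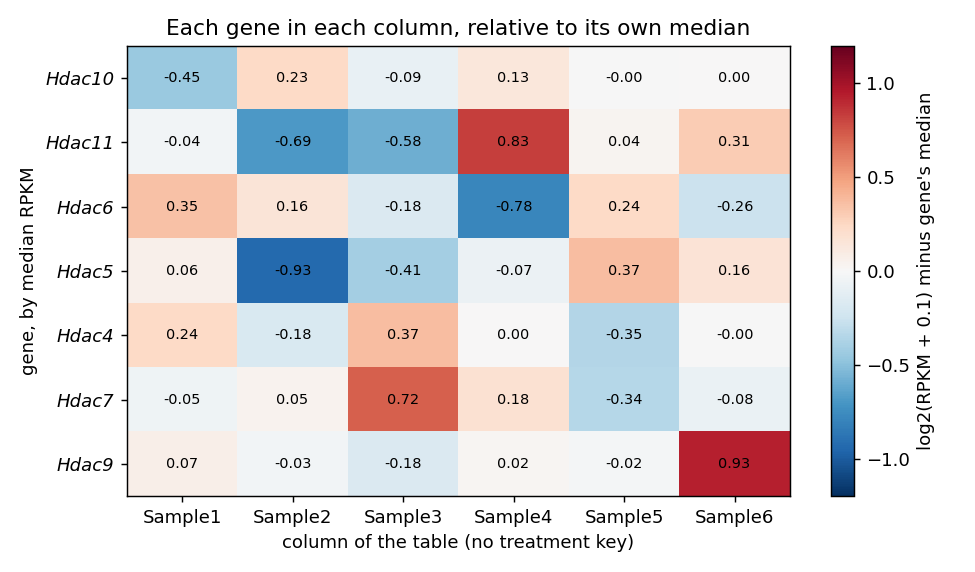
Each of the 7 genes in each column as log2(RPKM + 0.1) minus the gene's own median, with rows ordered by median level and the number printed in each cell. Red cells lie above the median and blue cells below it, and no column is red or blue for all genes. Hdac11 was 0.83 above its median in Sample4, where Hdac6 was -0.78 from its own, and Hdac9 was 0.93 above its median in Sample6.

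Among the class IIb genes, Hdac10 had the highest median of the 7. It lies on chromosome 15 (89123307 to 89128700, reverse strand; ENSMUSG00000062906). Levels were 2.35, 3.84, 3.05, 3.56, 3.24 and 3.25 RPKM in Sample1 to Sample6, from 162 to 389 reads. Only Sample1 lay below 3 RPKM, and the highest column, Sample2, was 1.63-fold above it. With the columns scaled by their summed reads, Sample4 became the highest (3.98), 1.83-fold above Sample1, and Sample3 also fell below 3 (2.80). Intervals were separate for 4 of 15 pairs of columns.

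Hdac6, the tubulin deacetylase, is on chromosome X (7930120 to 7947889, reverse strand; ENSMUSG00000031161). Its levels were 3.69, 3.21, 2.53, 1.63, 3.40 and 2.38 RPKM in Sample1 to Sample6, from 272 to 434 reads. Sample1 was highest and Sample4 lowest, a 2.27-fold range, and intervals were separate for 11 of 15 pairs, the most among the 7 genes. When the columns were scaled by their summed reads instead, Sample5 became the highest and the range was 2.02-fold, with Sample4 still lowest. The gene length behind its RPKM, 4142 bases, equals that of its longest coding transcript in GENCODE.

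Hdac11, the class IV gene, lies on chromosome 6 (91156665 to 91174692, forward strand; ENSMUSG00000034245). It was at 3.12, 1.95, 2.10, 5.76, 3.28 and 3.98 RPKM in Sample1 to Sample6, from 65 to 290 reads. The range, 2.96-fold, was the widest of the 3 members at 1 RPKM or more in every column. Sample4 was alone above 5 RPKM, with an interval of 5.12 to 6.46 RPKM, and Sample2 and Sample3 were lowest with overlapping intervals (1.50 to 2.48 and 1.68 to 2.61 RPKM). Separate intervals were found for 10 of 15 pairs. The length of 1247 bases used for Hdac11 is near that of a GENCODE transcript but shorter than the longest coding one of 2653 bases, and the longer length would lower its median from 3.20 to 1.50 RPKM and its place in the order of the 7 medians from 2 to 3.

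The order of neighbouring genes was least settled among the 3 highest. Hdac10 was above Hdac11 in 2 of 6 columns and Hdac11 was above Hdac6 in 2 of 6, so that these neighbours, with medians 1.01-fold and 1.12-fold apart, did not differ beyond their spread. The highest of the 7 was Hdac6 in Sample1 and Sample5, Hdac10 in Sample2 and Sample3, and Hdac11 in Sample4 and Sample6. Hdac6 was above Hdac5 in 5 of 6 columns, with overlapping ranges, the exception being Sample4. Hdac5 was above Hdac4 in 6 of 6, as given above. The ranges of Hdac4 and Hdac7 did not overlap, and their medians differed 5.59-fold. Hdac7 and Hdac9, 6.20-fold apart in medians, overlapped only through Hdac9 in Sample6.

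Set among genes of similar level, the 7 differed in how much they varied. Spread was taken as the highest minus the lowest column on the scale log2(RPKM + 0.1). Hdac11 had a spread of 1.52, larger than that of 92.3% of the 2378 genes with medians from 3 to 10 RPKM, whose median spread was 0.66. Hdac10, in the same band, had 0.68, larger than that of 52.3%. In the band from 1 to 3 RPKM, with 2438 genes and a median spread of 0.83, Hdac5 had 1.30 (larger than 81.5%) and Hdac6 had 1.13 (larger than 74.0%). Hdac4 had 0.72 and Hdac7 had 1.06 in the band from 0.1 to 1 RPKM, where the median was 1.14, and these were larger than 17.5% and 44.1% of 4032 genes. The spread of Hdac9 was 1.11 over all columns and 0.25 without Sample6, so that it rests on that column.

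Counting error accounts for a part of these spreads that depends on the number of reads. An index of dispersion, the variance of a gene's reads between columns over that expected from counting alone, would be about 1 without any other source of variation. It was 30.3 for Hdac6, 24.4 for Hdac11, 20.5 for Hdac9, 17.3 for Hdac5, 5.83 for Hdac10, 4.96 for Hdac7 and 4.09 for Hdac4. The median index was 5.30 over genes from 0.1 to 1 RPKM, 8.45 from 1 to 3 RPKM and 13.3 from 3 to 10 RPKM. Hdac6 was above 89.6% of the genes of its band, and Hdac10 above only 20.1% of its own. For the same relative variation the index grows with the number of reads, and the bands match genes by RPKM only. The index therefore does not rank the genes by relative variation. That of Hdac9 rests on Sample6, with 57 reads against 3 to 11 in the other columns.

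**Figure D3:**
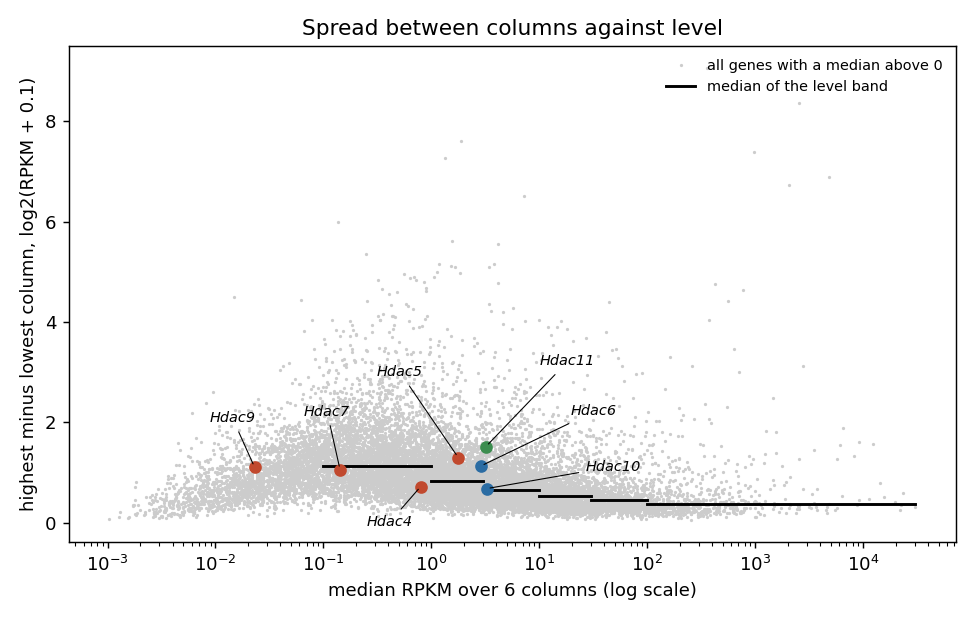
Highest minus lowest column on the log2(RPKM + 0.1) scale against the median RPKM (log scale) for all genes with a median above 0 (grey), with black lines for the median spread in each band of level. The coloured points are the class IIa (red), IIb (blue) and IV (green) genes. Hdac11, Hdac5 and Hdac6 lie above the line of their band, Hdac4 lies below it, and Hdac10 and Hdac7 lie near theirs.

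The place of the 7 among all genes depended on which genes were counted. Of the 16028 genes above 0 in at least 1 column, 66.4% had a lower median than Hdac10, 66.1% than Hdac11 and 64.7% than Hdac6. For Hdac5 the share was 58.2%, for Hdac4 47.1%, for Hdac7 27.9% and for Hdac9 16.1%. Among genes at 1 RPKM or more in at least 1 column, the shares were lower, at 39.6% for Hdac10, 39.1% for Hdac11, 36.7% for Hdac6, 24.99% for Hdac5 and 5.39% for Hdac4. From column to column, Hdac11 moved between rank 4199 in Sample4 and rank 6454 in Sample2, and Hdac10 between 5059 and 6123.

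The class I genes served as the reference within the family. Hdac3, the target of RGFP966, was the highest of all 11 genes in every column, with 11.9 to 14.8 RPKM and a median of 14.2 RPKM. Hdac1 ranged from 5.83 to 7.10 RPKM, above all 7 class II and IV genes in every column. Hdac2 (1.24 to 3.95 RPKM) and Hdac8 (0.911 to 1.91 RPKM) lay lower. The range of Hdac2 overlapped with those of Hdac5, Hdac6, Hdac10 and Hdac11, and that of Hdac8 with those of Hdac4, Hdac5 and Hdac6. Hdac10 and Hdac11 were above Hdac8 in 6 of 6 columns. Expressed as a percentage of Hdac3 in the same column, which does not depend on how the columns are scaled, Hdac10 was at 17.2% to 29.9%, Hdac11 at 13.1% to 48.4%, Hdac6 at 13.7% to 27.0%, Hdac5 at 5.97% to 16.1% and Hdac4 at 4.15% to 7.55%. Hdac7 was at 0.633% to 2.14% and Hdac9 at 0.0623% to 0.937%. None of the 7 reached the level of Hdac3 in any column.

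Class II and IV genes together made up 29.3% to 39.0% of the summed RPKM of the 11 genes. Class IIb accounted for 14.8% to 19.2%, class IV for 5.31% to 16.5% and class IIa, although it has 4 of the 7 genes, for 4.76% to 8.31%. Hdac6, Hdac10 and Hdac11 held between 74.1% and 83.7% of the summed RPKM of the 7 in each column. The share of class IV was highest in Sample4 (16.5%), and in that column the share of class I was lowest (61.0%). Class IIa had its lowest share in Sample2 (4.76%) and lay between 7.62% and 8.31% in the other 5 columns.

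**Figure D4:**
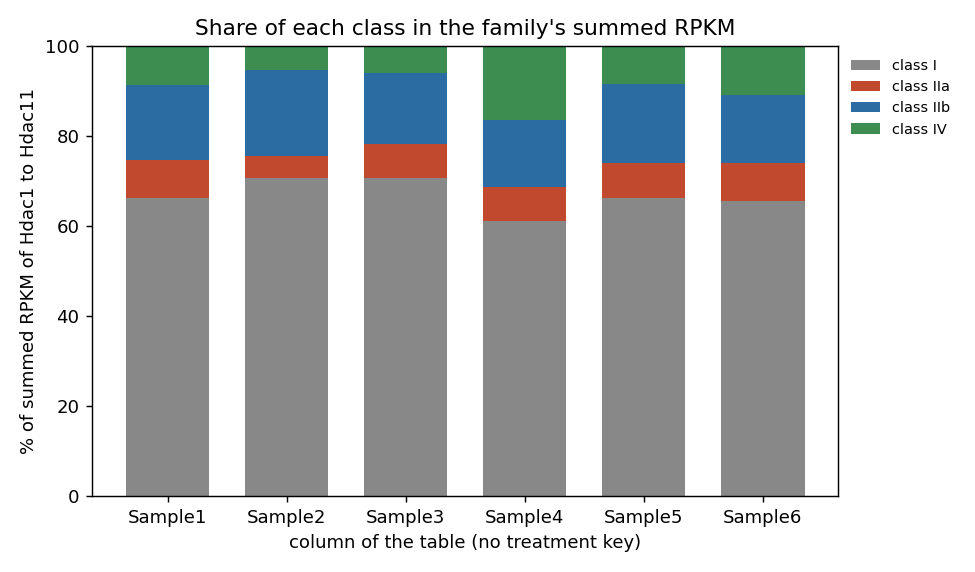
Share of class I, IIa, IIb and IV genes in the summed RPKM of Hdac1 to Hdac11, in percent, as stacked bars for each column. Class I holds between 61.0% and 70.7% of the sum, and the class IV segment, Hdac11 alone, is largest in Sample4.

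Genes through which these proteins act ranged from undetected to well above the deacetylases themselves. Gps2, a small subunit of the NCoR complex, had a median of 6.62 RPKM. Of the MEF2 and FOXO factors, 2 of 6 were at 1 RPKM or more in all columns, and medians ran from 0 for Mef2b to 3.36 RPKM for Foxo1, which drives gluconeogenic genes. Among 15 kinases known or thought to phosphorylate class IIa proteins or act upstream, 7 were at 1 RPKM or more in all columns, from Prkd1 (median 0.00837 RPKM) to Camk1 (13.3 RPKM), a calcium-dependent kinase. The 14-3-3 and exportin list had 6 of 8, from Sfn (0.00980 RPKM) to Ywhae (62.6 RPKM). Beside these counts and those of the lists below, 7108 of all 23420 genes were at this level in every column. Of the 23420, 16028 were above 0 in at least 1 column. Ywhae, Gps2, Foxo1 and Camk1 had medians above each class IIa gene, but each was named as the highest of its list. Mef2b, Prkd1 and Sfn, the lowest of theirs, had medians below each class IIa gene. The lists as a whole were thus not above class IIa.

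For class IIb and IV, 9 of 10 genes listed as substrates and partners of HDAC6 were at 1 RPKM or more in all columns, from Tppp (0.399 RPKM), a tubulin-binding protein, to Sqstm1 (235 RPKM), the autophagy receptor p62. Of 11 genes of polyamine metabolism, the pathway of HDAC10, 7 were. The highest was Sat1, the acetyltransferase that marks polyamines for breakdown, with a median of 86.1 RPKM and a range of 58.9 to 128 RPKM. The lowest, Amd1, was listed at 0 in every column. Shmt2, a mitochondrial serine hydroxymethyltransferase reported as a substrate of HDAC11, was at 44.0 to 60.2 RPKM. The sirtuins, the NAD-dependent class III deacetylases, had 5 of 7 genes at this level, from Sirt1 (0.359 RPKM) to the mitochondrial Sirt3 (54.9 RPKM), whose median was above that of each class II and IV gene.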

How the data were processed

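Liver RNA of 6 mice was converted to cDNA with Smart-seq2 reagents and made into Nextera libraries. Per the labels and the study's methods, the authors checked reads with FastQC 0.11.4, aligned them with STAR 2.4.2a to mm10 with UCSC transcripts, counted them per gene with featureCounts (Subread 1.5.0-p2) with its default settings and used edgeR to make the RPKM values that were deposited. By default, strand is not used and reads that map to several places or genes are not counted, so that Amd1 or Hba-a1 at 0 need not be unexpressed.

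The 6 columns were taken as 1 group, low-iron liver, because no label ties a column to a treatment. Hence no test between groups, mean or SD is given, only values, medians and ranges, and differences are read against the spread between columns. Dixon's test was used only to flag single columns. Whole reads were recovered from the ratios of the deposited RPKM values: lengths within 0.01 base of a whole number were obtained for 96.3% of 16028 genes. On simulated data, 98.4% of 11601 genes with enough reads to judge had their reads returned exactly. The library sizes behind the RPKM were 0.919 to 1.12 times the summed reads, so that the deposited values include a scaling of the columns. Poisson intervals are exact, at 95%. Log2 values used a pseudocount of 0.1 RPKM.

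The members, gene lists and level bands were chosen with earlier results of these data known. The genes named were the 7 members, the class I genes and, in each list, those with the highest and lowest median, except that 1 list is given by its highest gene alone and the rest of it is not reported here. Alternatives were other scalings, pseudocounts, thresholds, gene lengths and leaving out each column. Genes with a pattern like that of a member were to be named by correlation, but were not, since the columns fall into 2 sets. Positions and sequences were taken from GENCODE M21 (GRCm38), read with Biopython 1.88 under Python 3.11.15. RefSeq promoters were not used here.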

Additional observations from a re-analysis of the deposited data

Results flagged for a closer look

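In Sample6, Hdac9 was at 0.135 RPKM against 0.00873 to 0.0289 RPKM in the other 5 columns. Its gap to the nearest column was 0.840 of the whole range, above the 95% critical value of Dixon's test for 6 samples. It was the only 1 of the 7 genes for which a column was singled out in this way. The next largest gap was that of Hdac7 in Sample3, at 0.600 of its range. For values of a single normal population, chance alone singles out about 1 group in 20, and 7 were examined. The values here pool treated and vehicle livers, and Hdac9 in the other 5 columns rests on 3 to 11 reads. That rate therefore need not hold. The Hdac9 value in Sample6 came from 57 reads, and which part of the gene they fell on was not analysed here.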

How the results depend on the processing

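Of 275 values recomputed under alternative settings, 223 were classed as the same and 52 as moved. A value was classed as the same if it equalled the main one or differed from it by less than the SD between the 6 columns. That SD pools treated and vehicle livers. The limit was not the highest minus the lowest column, and for the number of genes 2 and 4 were classed as the same as 3. The number of the 7 genes at 1 RPKM or more in all columns was 3. It was 5 when each column was rescaled to the same sum, as TPM values are, 5 with a threshold of 0.5 RPKM 1 with a threshold of 2 RPKM and 2 with the longest GENCODE transcript lengths, and between 3 and 4 with each column left out. Rescaling to that sum raised the level of all genes together (by 0.49 to 0.79 on the log2 scale, depending on the column). The median share of class I in the family's summed RPKM was 66.2%. Weighted by gene length it was 56.6%, and with the longest GENCODE transcript lengths for the 7 genes 70.5%. For class IIa the share was 7.81%, 13.7% when weighted by length and 6.19% with the longest lengths. For class IIb it was 16.3%, and these settings gave 24.2% and 18.2%. For class IV it was 8.61%, and these settings gave 4.59% and 4.30%. Leaving out each column gave 66.2% to 66.3%, 7.68% to 7.93%, 15.8% to 16.8% and 8.56% to 8.65% for the 4 classes.

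Leaving out single columns left the places of Hdac5, Hdac4, Hdac7 and Hdac9 in the order as they were, and moved Hdac10 between places 1 and 2, Hdac11 between 1 and 3 and Hdac6 between 2 and 3. Without Sample2 the spread of Hdac5 was 0.78 in place of 1.30, without Sample4 that of Hdac6 was 0.61 in place of 1.13, without Sample1 that of Hdac10 was 0.32 in place of 0.68, and without Sample3 that of Hdac7 was 0.52 in place of 1.06. For Hdac7 and Hdac9 the spread also depended on the pseudocount, at 1.61 and 2.95 with 0.01 RPKM and 0.25 and 0.17 with 1 RPKM. With so few reads their levels are limited by depth. The summed reads and the gene-length settings were chosen after seeing the data.

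No paired analysis was made, since the study describes no pairing of these treated and vehicle mice. The columns also carry no replicate numbers.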

Other observations

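The columns of the table, which carry no treatment key, fell into 2 sets in their values. On the axis that held 59.7% of the variance of log2 values over 7108 genes, the scores were 20.4, 14.5 and 24.7 for Sample1, Sample2 and Sample3 and -16.6, -25.2 and -17.7 for Sample4, Sample5 and Sample6. The correlation of each column was highest with a column of its own set. These sets were found from the data. Whether they match the groups of the study is not known, and no gene was compared between them.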
